A study of Drosophila melanogaster with 4 samples.

Results

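Expression of 7 genes for the handling of small transmitters was followed in heads of Drosophila melanogaster fed tetraethylammonium chloride (TEA), an organic cation that blocks potassium channels. The genes are Gs2, Gdh and GluClalpha for glutamate, Ace for acetylcholine, Hdc and ine for histamine and neighbouring amine transport, and Pu for pteridines. They were taken by symbol from the platform annotation, and all 7 were among the 1379 genes with a ratio on at least 3 of the 4 arrays. Both groups were unmated males of the wild-type strain Oregon-R, 3 to 4 days old when treatment began, and neither carried a transgene or mutation in the labels. The treated group ate food with 16 mg/ml TEA for 7 days and the control group ate normal food for the same time, in vials that started with 30 flies. The labels give the same age for both groups, but the growth notes of replicates 1 and 2 give 2 to 3 days of adult rearing for the untreated flies against 3 to 4 days for the treated ones. Each of 4 biological replicates set RNA from 1 pool of treated heads against RNA from 1 pool of heads of control flies, labelled with different dyes and hybridised together to a cDNA array. The TEA sample carried Cy5 in replicates 1 and 2 and Cy3 in replicates 3 and 4.

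In the insect brain acetylcholine is the main fast excitatory transmitter, and glutamate acts as an inhibitory transmitter where it opens chloride channels. Glia take up glutamate from the synapse and convert it to glutamine, and mitochondria can instead oxidise it. Photoreceptors of the fly eye signal with histamine, which is made from histidine and recycled through glia. Pteridines serve as eye pigments and, as tetrahydrobiopterin, as the cofactor of the enzymes that begin dopamine and serotonin synthesis.

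All values are log2 ratios of TEA over normal food, so 0 means equal signal and a positive value means more signal with TEA. The labels do not state which channel was divided by which. Cy5 over Cy3 was taken as the likely direction, because Cy5 is channel 1 of every array and the design text writes the red wavelength over the green one, so replicates 3 and 4 were multiplied by -1. With the opposite order every sign below would turn. The arrays held ratios for 5445 to 6252 of 27648 spots, and with 4 arrays the number of arrays limits the precision. After turning, the array medians over all probes were -0.09, -0.08, 0.25 and 0.05 in replicates 1 to 4, which is why values relative to the array median are given beside the ratios below. A linear model with moderated errors (limma, two-sided, Benjamini-Hochberg over all 1379 genes) called 6 genes higher and 6 lower with TEA at an adjusted p under 0.05, or 0.435% of genes in each direction. None of the 7 genes was among them. At an unadjusted limma p under 0.05, 2 of the 7 were higher and 1 was lower, against 6.09% and 2.83% of all genes. The 7 genes were chosen with earlier results of these data known. Counts of them beside all genes, here and below, are therefore no test of the group. Since the replicates are pools of heads, fewer cells of a type and less RNA per cell cannot be told apart for any gene below.

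The 3 glutamate genes were the members whose ratios had 1 sign on all 4 arrays, Gs2 and GluClalpha above 0 and Gdh below, and none of them passed the threshold over all genes. Gs2, which encodes a glutamine synthetase that joins glutamate and ammonia and is used by glia around synapses, stood at log2 ratios of 0.24, 0.56, 0.72 and 0.31 in replicates 1 to 4. All 4 arrays were above 0, the highest being replicate 3 and the lowest replicate 1. The mean was 0.46 ± 0.14 (SE, n = 4; limma adjusted p = 0.245). This equals 1.37 times the control signal, with a 95% interval from 1.11 to 1.70. Relative to the array medians Gs2 stood at 0.33, 0.64, 0.48 and 0.25, again above on each array. Its duplicate spots differed by 0.01 to 0.04 on the log2 scale, against array medians of 0.11 to 0.14 for all spot pairs.

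GluClalpha encodes the glutamate-gated chloride channel, through which glutamate inhibits insect neurons and on which ivermectin acts. Its log2 ratios were 0.034, 0.53, 0.84 and 0.34 in replicates 1 to 4. All were above 0, but replicate 1 lay almost at 0 and its spots there had opposite signs, at 0.080 and -0.013. The mean was 0.44 ± 0.15 (SE, n = 4; limma adjusted p = 0.363), which is 1.35 times the control signal with a 95% interval from 1.07 to 1.71. Relative to the array medians the values were 0.12, 0.61, 0.60 and 0.29. Without replicate 1 the mean was 0.57 (limma adjusted p = 0.115) and without replicate 3 it was 0.30 (limma adjusted p = 0.455). GluClalpha did not pass without either array. Without replicate 1 the error was shared by all genes and the spread of GluClalpha itself did not enter. Without replicate 3 it entered in part, so these p-values rest on unlike errors.

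Gdh encodes glutamate dehydrogenase, the mitochondrial enzyme that interconverts glutamate and 2-oxoglutarate. Its log2 ratios were -0.50, -0.30, -0.36 and -0.23 in replicates 1 to 4, below 0 on every array and within a narrow range. The mean was -0.35 ± 0.13 (SE, n = 4; limma adjusted p = 0.392), equal to 0.785 of the control signal with a 95% interval from 0.642 to 0.961. Relative to the array medians Gdh stood at -0.41, -0.22, -0.61 and -0.29. The SD over arrays was 0.11 for the ratios and 0.17 relative to the array medians. The moderated SE borrows spread from all genes.

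Both enzymes use glutamate, and their arrays did not overlap. The difference Gs2 minus Gdh, a pair picked after the values were seen, was 0.74, 0.86, 1.08 and 0.54 in replicates 1 to 4, with a mean of 0.81 ± 0.23 (SD, n = 4). This difference does not depend on how an array is centred. An exact two-sided permutation of the signs of the arrays gave p = 0.125, the smallest value that 4 arrays allow. Gs2, GluClalpha and Gdh each gave the same exact p of 0.125, so this test cannot reach 0.05 here. If the swapped arrays were not turned, against the labelled dye swap, the difference would be -0.0060. With the opposite channel order on every array it would keep its size and turn its sign.

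**Figure D1:**
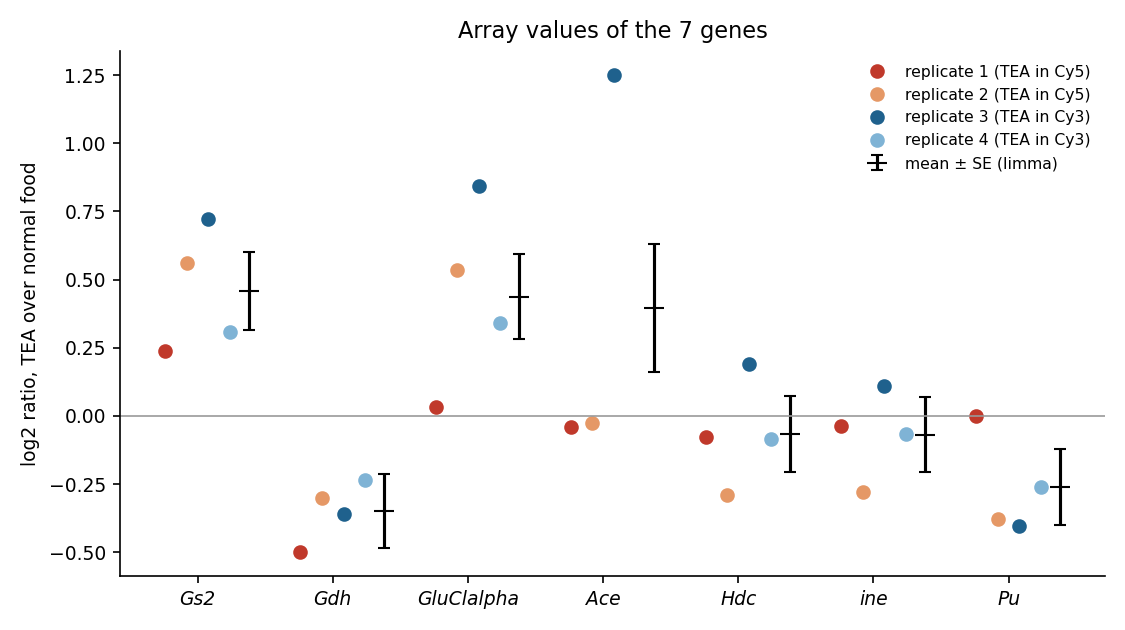
Log2 ratio of TEA over normal food (vertical axis) for each of the 7 genes, with 1 point per array coloured by replicate and dye orientation, and the mean with its limma SE in black. Gs2 and GluClalpha lie above 0 and Gdh below 0 on all 4 arrays, and the mean of Ace rests on replicate 3 at 1.25.

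Ace encodes acetylcholinesterase, which ends cholinergic signalling by hydrolysing acetylcholine. It had values on 3 arrays, at -0.04, -0.02 and 1.25 in replicates 1 to 3, and none in replicate 4. The arrays with TEA in Cy5 were therefore at 0 within their spot differences, and the single array with TEA in Cy3 was far above. The mean of 0.40 ± 0.23 (SE, n = 3; limma adjusted p = 0.761) was -0.03 without replicate 3 (limma adjusted p = 0.985). Centred on the array medians, Ace stood at 0.05, 0.06 and 1.01, above the median on all 3 arrays. On replicate 3 the spots of Ace stood at 1.46 and 1.04, a difference of 0.42 against a median of 0.14 for that array, so both spots were high there but apart. A second Ace probe on the array had no value on any array. With 1 of the 3 values in the swapped orientation, a dye effect does not cancel in the mean of Ace.

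Hdc encodes histidine decarboxylase, which makes the histamine that photoreceptors release. Its log2 ratios were -0.08, -0.29, 0.19 and -0.09 in replicates 1 to 4, with a mean of -0.07 ± 0.14 (SE, n = 4; limma adjusted p = 0.967). ine encodes inebriated, a transporter-like protein of the SLC6 family whose loss makes fly motor neurons more excitable. Its log2 ratios were -0.04, -0.28, 0.11 and -0.07, with a mean of -0.07 ± 0.14 (SE, n = 4; limma adjusted p = 0.964). With centred arrays Hdc stood at 0.01, -0.21, -0.05 and -0.14 (mean -0.10) and ine at 0.05, -0.20, -0.14 and -0.12 (mean -0.10). Neither gene differed from equal signal beyond the spread of its arrays. The 95% intervals, 0.775 to 1.18-fold for Hdc and 0.776 to 1.17-fold for ine, leave room for changes of about that size in either direction. A second ine probe had no value on any array.

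Hdc and ine, a pair singled out after their values were seen, had close values on each array. Their difference was -0.04, -0.01, 0.08 and -0.02 in replicates 1 to 4, and the root mean square difference of their centred values over the 4 arrays was 0.047. Their probes occupy consecutive positions in the deposited table. The printing layout of the slide was not used here, so a shared place on the glass was not tested. Over all pairs measured on 4 arrays, the median root mean square difference was 0.23 at 1 position apart, 0.29 at 2, 0.34 at 10 and 0.45 at 100. Of the 6 positions before Hdc, 3 had values on all arrays. The unnamed probe directly before Hdc stood at 0.05, -0.29, 0.22 and -0.04, CG8736 at 0.0065, -0.21, 0.31 and -0.05, and an unnamed probe 4 positions before at -0.0105, -0.195, 0.17 and -0.06. The position after ine, an unnamed probe, stood at -1.05, -0.93, -1.30 and -1.17 (mean -1.11 ± 0.13, SE, n = 4), and the next at -0.95, -0.83, -1.10 and -0.96. Both passed in the fit over 3150 probes (limma adjusted p = 0.038 and 0.039), where 0.540% of probes were called lower. The following positions returned towards 0, at -0.61 for Cpr76Bd, -0.42 for an unnamed probe and -0.02 for T3dh. Positions on either side of the other 5 genes held values in 1 case, sigmar before Gdh, at -0.37, -0.15, 0.03 and 0.31 with a mean of -0.045.

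**Figure D2:**
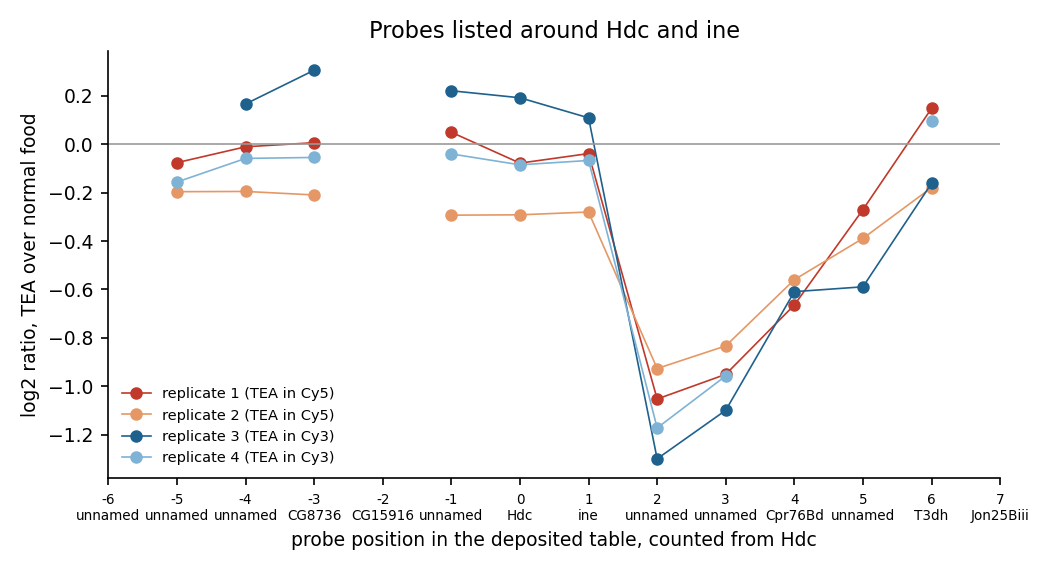
Log2 ratio of TEA over normal food (vertical axis) for the probes listed from 6 positions before to 7 positions after Hdc (horizontal axis, with the gene at each position), with 1 line per array. Hdc and ine have means of -0.07 and -0.07, and the unnamed positions directly after ine stand near -1.11 and -0.96 on average.

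Pu, also called Punch, encodes GTP cyclohydrolase I, the first enzyme of pteridine and tetrahydrobiopterin synthesis. Its log2 ratios were 0.0015, -0.38, -0.41 and -0.26 in replicates 1 to 4. Replicate 1 was at 0 and the other 3 arrays were below it. The mean was -0.26 ± 0.14 (SE, n = 4; limma adjusted p = 0.687), equal to 0.835 of the control signal with a 95% interval from 0.678 to 1.03, and it did not pass. Relative to the array medians Pu stood at 0.09, -0.30, -0.65 and -0.32, so centring lowered the value of replicate 3 most.

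In order of mean log2 ratio the genes ran Gs2 (0.46), GluClalpha (0.44), Ace (0.40), Hdc (-0.07), ine (-0.07), Pu (-0.26) and Gdh (-0.35). The 95% intervals of neighbours in this order overlapped in every case. Such overlap is no test between genes, because the genes share the same arrays and the separate intervals ignore that pairing. The median of the 7 was -0.07 against 0.02 for all genes tested. Of the 6 genes with 4 values, 2 were above 0 on all arrays, against 10.1% of the 995 genes with 4 values, and 1 was below 0 on all arrays, against 4.52%. Relative to the array medians the same 2 genes were above on all arrays and Gdh was below, against 11% and 7.54% of genes.

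Because the arrays fell into 2 dye orientations, the ratio of each gene was compared between them in a model with an orientation term. Over all genes this term passed at a limma adjusted p under 0.05 for 12.8% and at an unadjusted p under 0.05 for 25.7%. The median difference over all genes, TEA in Cy5 minus TEA in Cy3, was -0.26, and -0.02 with centred arrays. These shares are for arrays that were not centred, so an offset of whole arrays enters them. Ace had a mean of -0.03 with TEA in Cy5 against a single value of 1.25 with TEA in Cy3, a difference of -1.28 ± 0.32 (SE, n = 3; limma adjusted p = 0.0024). That p assumes that the lone Cy3 array varies like other genes do, since the error was shared by all genes and the spread of Ace itself did not enter, so it is no test of orientation for Ace. None of the other 6 genes passed. Gs2 stood at 0.40 with TEA in Cy5 and 0.51 with TEA in Cy3, a difference of -0.11 ± 0.26 (SE; limma adjusted p = 0.807). Gdh stood at -0.40 and -0.30 (limma adjusted p = 0.833), and Pu at -0.19 and -0.33 (limma adjusted p = 0.757). With centred arrays the difference of Pu moved from 0.15 to 0.38 (limma adjusted p = 0.269). GluClalpha stood at 0.28 and 0.59, a difference of -0.31 ± 0.26 (limma adjusted p = 0.479), which became -0.07 with centred arrays. Hdc (-0.18 and 0.05) and ine (-0.16 and 0.02) had opposite signs in the orientations, with limma adjusted p of 0.592 and 0.685, but 1 sign relative to the array medians, at -0.10 and -0.10 for Hdc and -0.08 and -0.13 for ine. The differences of Gs2, Gdh and ine changed sign when arrays were centred, to 0.12, 0.13 and 0.05.

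**Figure D3:**
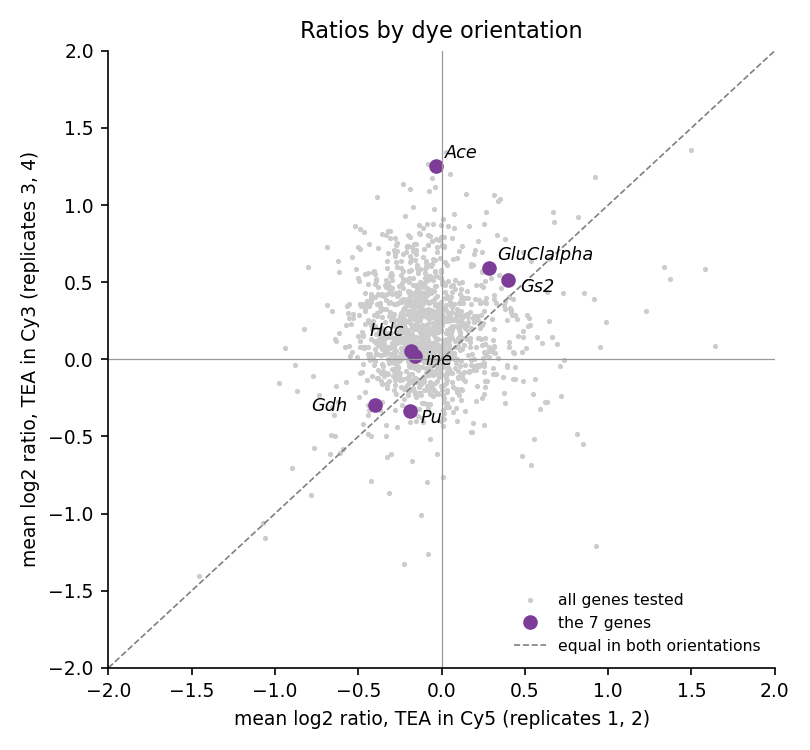
Mean log2 ratio of TEA over normal food on the arrays with TEA in Cy5 (horizontal axis, replicates 1 and 2) against that on the arrays with TEA in Cy3 (vertical axis, replicates 3 and 4), for all 1379 genes in grey and the 7 genes in purple. Gs2 (0.40 and 0.51), Gdh, Pu, ine and Hdc lie nearer to the dashed line of equal values than GluClalpha (0.28 and 0.59). Ace (-0.03 and 1.25) lies far above that line.

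With that orientation term kept in the model for the TEA effect, calls changed. Gs2 (0.46 ± 0.13, SE, n = 4; limma adjusted p = 0.0097), GluClalpha (0.44 ± 0.13, SE, n = 4; limma adjusted p = 0.015) and Ace (0.61 ± 0.16, SE, n = 3; limma adjusted p = 0.0036) then passed as higher with TEA, and Gdh did not (limma adjusted p = 0.075). That is 3 of 7 higher and 0 of 7 lower, in a fit that called 5.08% of all genes higher and 1.89% lower. The call of Ace there rests on replicate 3, without which its mean was -0.03. In this fit the prior degrees of freedom were infinite, so every gene with 4 values shared 1 SE of 0.13 and no gene's own spread entered its p. With arrays also centred, an alternative chosen after seeing the data, Gdh passed too (-0.38 ± 0.10, SE, n = 4; limma adjusted p = 0.013), beside 6.67% of all genes called higher and 3.55% lower. With an orientation term but probes in place of gene means, also chosen after seeing the data, none of the 7 passed. Their smallest limma adjusted p was then 0.229, for Ace, with 0 of 3150 probes called by limma in either direction, and 271 higher and 156 lower at an unadjusted p under 0.05.

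The other genes of these pathways came from lists of 108 symbols, of which 60 had a probe and 19 had enough values. Of the 12 measured genes outside the 7, none passed in either direction and none had an unadjusted p under 0.05. Their median was -0.02 and they ranged from -0.25 for ChT, the choline transporter that refills cholinergic terminals, to 0.23 for Gabat, the GABA transaminase that breaks down GABA. In glutamate and GABA metabolism Gabat stood at -0.21, 0.06, 0.45 and 0.64 in replicates 1 to 4 and Gad1, which makes GABA from glutamate, at -0.51, -0.33, 0.28 and 0.56. Both ran from below or near 0 with TEA in Cy5 to above 0 with TEA in Cy3, unlike Gs2 and Gdh, whose 4 arrays kept 1 sign. The differences, TEA in Cy5 minus TEA in Cy3, were -0.62 for Gabat and -0.84 for Gad1, against a median of -0.26 over all genes. These values were not centred, so an offset of whole arrays enters them. P5CDh1, a mitochondrial enzyme that yields glutamate from proline breakdown, had 1 sign on all arrays at -0.39, -0.13, -0.08 and -0.10, with a mean of -0.17 ± 0.14 (SE, n = 4; limma adjusted p = 0.862).

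Receptors and transporters in the lists showed smaller means than Gs2 and GluClalpha. The muscle glutamate receptor subunit GluRIIA had a mean of 0.08 ± 0.14 (SE, n = 4), the nicotinic receptor subunit nAChRbeta1 0.13 ± 0.16 (SE, n = 4) and the amino acid transporter Eaat2 -0.11 ± 0.15 (SE, n = 4). nAChRbeta1 stood at 0.67 in replicate 3 and between -0.08 and 0.02 on the other arrays, so its highest array was the same as that of Ace. In the histamine list, t, which encodes the hydrolase tan that frees histamine from its beta-alanine conjugate, stood at 0.26, -0.74, 0.85 and -0.83, the widest spread of any listed transmitter gene, with a mean of -0.12 ± 0.23 (SE, n = 4). In the pteridine list pr, which acts after Pu in the same pathway, had a mean of -0.015 ± 0.14 (SE, n = 4), and cl had -0.02 ± 0.17 (SE, n = 3). Ddc, the decarboxylase of dopamine and serotonin synthesis, had -0.04 ± 0.15 (SE, n = 4), and CG10804, listed with the SLC6 transporters beside ine, 0.01 ± 0.21 (SE, n = 3). That mean joins unlike arrays, since CG10804 stood at -0.37 and -0.28 in replicates 1 and 2 and at 0.69 in replicate 4. It had no value in replicate 3. The difference, TEA in Cy5 minus TEA in Cy3, was -1.02, with 1 array for TEA in Cy3 as for Ace.

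**Figure D4:**
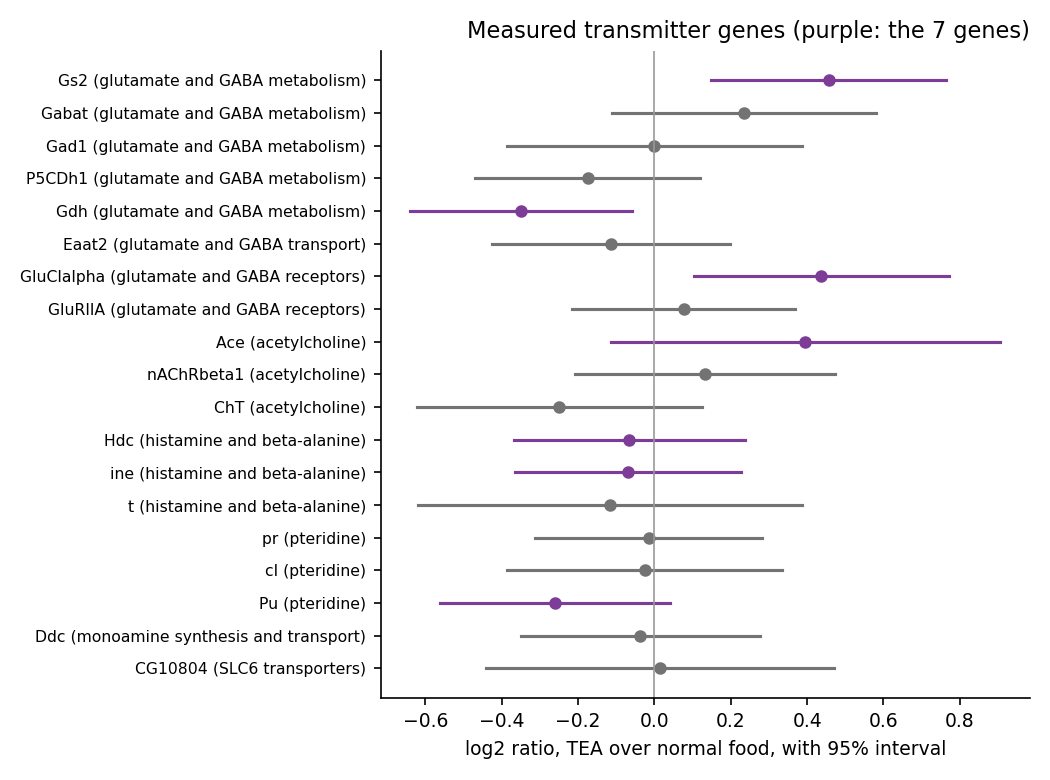
Mean log2 ratio of TEA over normal food with its 95% limma interval (horizontal axis) for the 19 measured genes of the transmitter lists, grouped by list, with the 7 genes in purple and the other 12 in grey. Intervals of Gs2, GluClalpha and Gdh leave out 0 before adjustment, and those of the other genes include it.

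Likeness to other genes was measured as the root mean square difference of centred log2 ratios over 4 arrays, among the 995 genes with 4 values. The gene nearest to Gs2 was atilla (0.084), and GluClalpha (0.12) came next, so another of the 7 genes was among the closest to Gs2. The genes nearest to GluClalpha were mrva (0.079) and CG11550 (0.11), followed by Gs2. Gdh was nearest to Cf2 (0.095) and CG6685 (0.096), and Pu to tsl (0.14) and Prosbeta5 (0.15). Hdc was nearest to uif (0.036) and RpL24-like (0.042), with ine after them, and ine to Zip88E (0.026) and Spt (0.043). These distances rest on 4 arrays that all genes share.

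The labelled tissue was checked against marker genes of head cell types, as far as they were measured. Of 13 photoreceptor markers 3 were measured, Arr1 (0.40 ± 0.15, SE, n = 4), trpl (0.12 ± 0.15) and inaD (0.07 ± 0.14), so eye transcripts were present, but a ratio does not show their level. Beside Hdc, the median of these 3 markers was 0.12, and none passed. Beside Gs2, 2 of 10 glial markers were measured, Gli at -0.02 ± 0.16 (SE, n = 3) and Tret1-1 at 0.08 ± 0.14 (SE, n = 4). Of the photoreceptor markers 6 had a probe on the array, and so did 6 of the glial ones. Of 8 neuronal markers 1 had a probe and of 5 haemocyte markers 4 did, and none of these had a value. In the list for lens and pigment cells only santa-maria had values, at -0.45 ± 0.16 (SE, n = 3; limma adjusted p = 0.379). Whether santa-maria marks those cells was not checked here, so it gives no reading of them. The 3 muscle markers had a median of 0.0029. Of 8 fat body markers 5 were measured, with a median of 0.45. Among them apolpp (0.78 ± 0.15, SE, n = 4; limma adjusted p = 0.022) passed and the other 4 did not, at 0.58 for Lsd-2, 0.45 for FASN1, 0.33 for bgm and -0.0011 for Lsp2. Their array medians were 0.63, 0.59, 0.68 and 0.30, higher than those of Gs2 on 2 of 4 arrays, and their part in the ratios of the 7 genes was not tested.

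**Figure D5:**
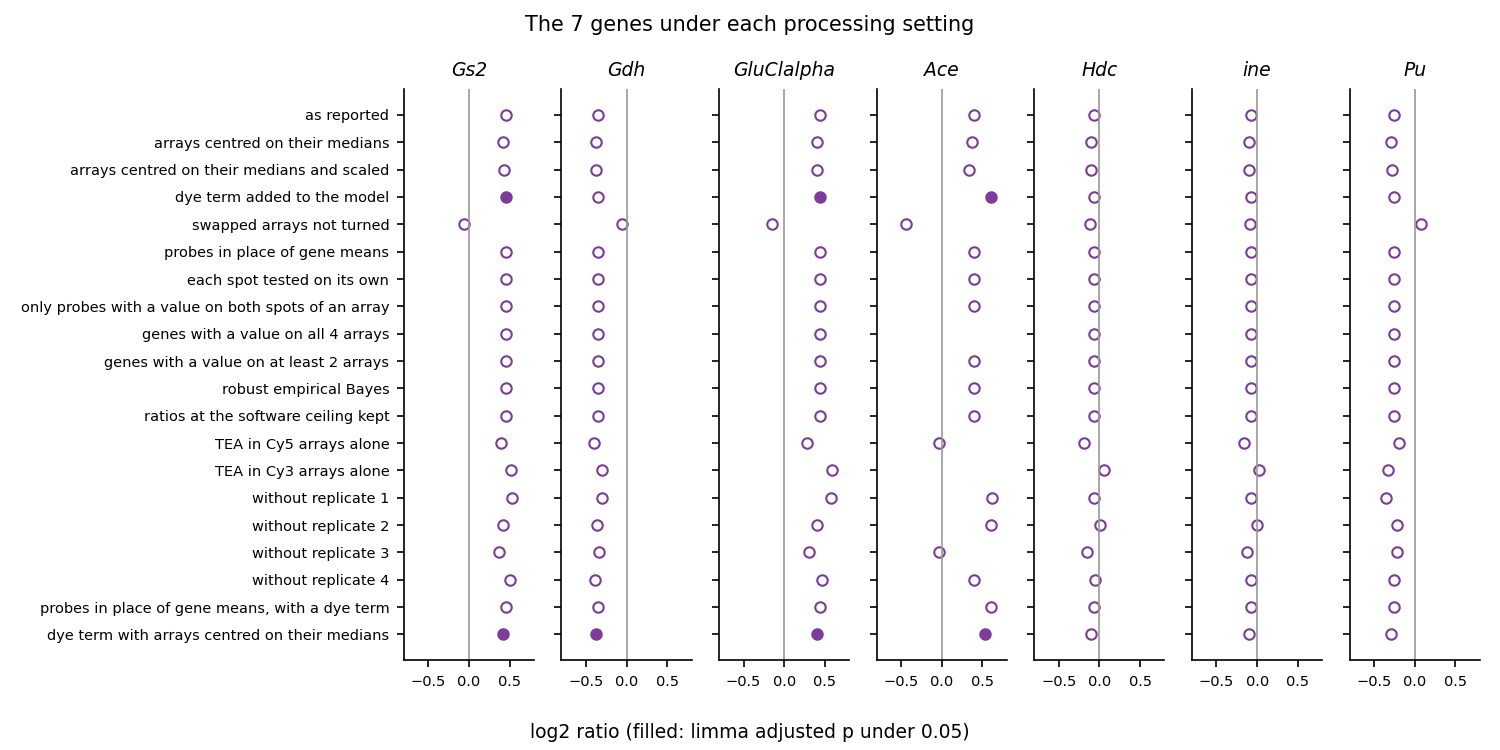
Log2 ratio (horizontal axis) of each of the 7 genes under each processing setting (rows), with filled points where the limma adjusted p was under 0.05. Filled points occur only with an orientation term over genes, and Gs2, GluClalpha, Ace and Pu cross 0 when the swapped arrays are not turned.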

How the data were processed

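RNA of TEA-fed and control fly heads was compared on 4 two-colour cDNA arrays. Per the series' design text, images were quantified with GenePix Pro 6.0 and ratios normalized with Acuity 4.0, after which dim, saturated, uneven and flagged spots were removed. The deposited values are log2 ratios that the authors had already normalized, so background and dye normalization could not be redone here. The order of the channels is not stated, and Cy5 over Cy3 was taken as likely.

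Here replicates 3 and 4 were multiplied by -1, duplicate spots were averaged to probes, and probes with 1 gene symbol were averaged to genes. Of 13824 probes, 3150 had values on at least 3 arrays, 1443 of these had 1 symbol, and they formed 1379 genes. Missing values were neither imputed nor set to 0, so Ace was fitted on 3 arrays. Genes were tested with limma 3.58.1 in R 4.3.3 (intercept only, two-sided, Benjamini-Hochberg over 1379 genes, threshold 0.05). The test was run on simulated data with independent noise and neither array offsets nor a dye effect. That run therefore does not cover the offsets and orientation differences of these arrays. Limma p-values rest on the spread between these head pools, moderated by the spread of all genes. The prior degrees of freedom were 10.27 in the main fit. They were infinite with a dye term, in either orientation alone and without replicate 1 or 2, so a gene's own spread did not enter there. Arrays were also centred on their medians, and other alternatives concerned the dye term, the unit of testing, the orientation and each replicate. Symbols matched the RefSeq gene table unchanged for all 7 genes. Positions are those of the deposited table, and the print layout was not used here. The 7 genes and all lists were chosen with earlier results of these data known. Named genes are the 7 genes, the measured members of the lists, the 2 genes nearest to each gene and the probes around Hdc and ine, the last chosen after their values were seen. Flies in withdrawal were not analysed here.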

Additional observations from a re-analysis of the deposited data

Results flagged for a closer look

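Ace was picked out for a gap between the dye orientations. The log2 ratio with TEA in Cy5 (mean -0.03, replicates 1 and 2) minus that with TEA in Cy3 (1.25, replicate 3 alone) was -1.28, with a limma adjusted p of 0.0024 and, with centred arrays, a difference of -0.96 and an adjusted p of 0.012. Since 1 array stands for the second orientation, these p-values borrow their error from other genes and are no test of orientation, and orientation and replicate 3 cannot be told apart for Ace.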

How the results depend on the processing

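Of 131 values of the 7 genes under alternatives, 114 kept their sign and their side of the threshold, 7 passed it newly and 10 changed sign. Several alternatives, such as single spots or robust errors, return the same mean for a member by construction. The sign was fixed in advance there, so the count is no measure of stability. Over all genes, 6 higher and 6 lower became 2 higher with arrays centred and 2 with arrays centred and scaled, 70 and 26 with a dye term, 92 and 49 with a dye term and centred arrays, 3 and 17 over probes, 1 and 3 over genes with 4 values, 58 and 107 on the Cy5 arrays alone, and 91 higher on the Cy3 arrays alone. Limma called 0 in either direction with swapped arrays not turned (16 higher and 229 lower at an unadjusted p under 0.05), with single spots (247 and 250) and with probes and a dye term (271 and 156). Leaving out 1 replicate gave 1 to 25 higher and 1 to 18 lower. With only a dye term added, in either orientation alone and without replicate 1 or 2, the prior degrees of freedom were infinite. No gene's own spread entered those counts. A dye term gave Gs2 0.46, GluClalpha 0.44 and Ace 0.61 as passing, and with centred arrays 0.42, 0.40, 0.53 and, for Gdh, -0.38. Settings joining a dye term with centring or probes were chosen after seeing the data. With swapped arrays not turned Gs2 was at -0.057, GluClalpha at -0.15, Ace at -0.44, Pu at 0.073 and Gs2 minus Gdh at -0.0060, while that difference ranged from 0.71 to 0.89 without 1 replicate. Ace was at -0.032, Hdc at 0.054 and ine at 0.021 in a single orientation (Ace in Cy5, the others in Cy3). Without 1 replicate Ace ranged from -0.032 to 0.61, Hdc from -0.15 to 0.0097 and ine from -0.13 to 0.0012, with the change of sign coming without replicate 3 for Ace and without replicate 2 for Hdc and ine. Centring turned the orientation differences of Gs2, Gdh and ine to 0.12, 0.13 and 0.053. The cause was not tested for any of these. Gdh was below 0 in 19 of 19 alternatives, with limma adjusted p from 0.013 to 0.904. Several of these return its mean of -0.35 by construction. With swapped arrays not turned Gdh stood at -0.051, about as near 0 as Gs2 at -0.057. Adjusted p ranged from 0.0057 to 0.881 for Gs2, 0.011 to 0.784 for GluClalpha and 0.0036 to 0.985 for Ace, which had no value over genes with 4 values or on the Cy3 arrays alone. The ratios already pair the treated and control pools of each replicate on 1 array, so no further replicate block could be fitted.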
